A study of Mus musculus with 16 samples.

Results

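CT12 VIP slices, collected 2 h after vasoactive intestinal peptide (VIP) was added, were compared with untreated CT10 slices on 8 of the 16 arrays of the series, 4 for each group. The arrays were chosen by their labels. Each array measured RNA from an organotypic slice culture of the suprachiasmatic nucleus (SCN), the central circadian pacemaker of the hypothalamus, made from C57BL/6J pups 8 to 11 days old. CT12 VIP slices received VIP at circadian time (CT) 10 and were collected at CT12, the time of the PER2::LUC peak, and the labels give the dose as 1 µM. The paper's methods give a higher dose than the labels. CT12 Veh slices received medium without VIP at CT10 and were collected at CT12 (4 arrays). CT10 slices were left untreated and collected at CT10. CT12 VIP and CT10 slices therefore differed in VIP, in handling and in 2 h of circadian time, which cannot be told apart in this pair. CT12 Veh slices shared the handling and the circadian time with CT12 VIP slices and the lack of VIP with CT10 slices. The labels name no allele or reporter for the slices. Whether each slice came from its own animal is not given in the sources used here, so p-values measure only the spread between these slices.

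VIP is released by neurons of the SCN core, which receive retinal input, and acts on other SCN cells through the receptor VPAC2. This receptor couples to adenylate cyclase and raises cAMP, which activates protein kinase A and, through CREB and related factors, genes whose promoters hold a cAMP response element (CRE). Signals of this kind also reach the ERK branch of the MAP kinases, whose early targets are immediate early genes such as Fos and Egr1, and the Period genes, which close the negative loop of the clock.

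With detection taken as a detection p no higher than 0.01, an array detected 8982 to 15326 in CT12 VIP, 8844 to 13751 in CT12 Veh and 10079 to 14681 probes in CT10, with CT12 VIP 1 and CT12 Veh 1 the lowest. Over the probes tested, arrays correlated at 0.939 to 0.968 within CT12 VIP, at 0.934 to 0.964 within CT10 and at 0.904 to 0.941 between these groups. The SCN peptide genes Vip and Avp were detected on every array of the 3 groups. None of the tested markers of astrocytes (11), microglia (9), oligodendrocytes (10), ependymal cells (10), choroid plexus and meninges (2) or vessels (1) passed the test between CT12 VIP and CT10 at its brightest probe, although another probe of the astrocyte gene Aqp4 was lower. Over all genes 2.17% were higher and 0.426% lower, so none passing in lists this short is near the share over all genes. Of 14 neuron markers Nefl, a neurofilament subunit, was higher, a call that was lost without CT12 VIP 4 or CT10 5. In slices, fewer cells of a type and less RNA per cell cannot be told apart.

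Of 17658 probes tested, 453 (2.57%) differed between CT12 VIP and CT10 at an adjusted p under 0.05 (limma, Benjamini-Hochberg), and 2402 had an unadjusted p under 0.05. Of the 453, 399 (88.1%) were higher in CT12 VIP and 54 were lower. The arrays of the groups did not overlap for 452 of them, which selection by the test itself favours. The share over all probes is not given, and uncalled genes such as Jun, Prkaca, Mt1 and Tcf7l2 also did not overlap. Rises were larger than falls. The median log2 difference was 1.09 over the higher probes and -0.76 over the lower ones, beside -0.02 over all probes. Of the higher probes, 241 were up by more than 1 (log2), 57 by more than 2 and 18 by more than 3, whereas 7 of the lower probes fell by more than 1 and 1 by more than 2. No CT10 array detected 171 of the higher probes, and no CT12 VIP array detected 15 of the lower ones. With 1 probe a gene (that with the highest mean), 209 of 9632 genes were higher (2.17%) and 41 were lower (0.426%). Counts over gene lists use this probe. Of list members that did not pass at it, Mafg, Gad1 and Osmr were higher and Pik3r1 was lower at another probe. The count of lower probes moved with single arrays. It was 89 without CT12 VIP 1, 25 without CT12 VIP 2, 32 without CT12 VIP 3, 20 without CT12 VIP 4, 25 without CT10 4 and 31 without CT10 5. The total was 293 without CT12 VIP 4.

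Transcription factors of the immediate early response stood among the largest rises. Of 8 tested AP-1 and small Maf factors, 6 were higher (Fosl2, Fos, Fosb, Maff, Atf3 and Mafk) and Jun and Mafg did not pass, with a median difference of 2.57 over the list against -0.05 over all genes. Fosl2, a Fos-family subunit of AP-1, had log2 signals of 10.77, 10.72, 10.84 and 10.65 in CT12 VIP slices, against 6.54, 7.01, 7.0 and 6.85 in CT10 slices, and rose by 3.89 (SE 0.15, adjusted p = 8.06e-08). Its 3 probes all passed, with differences from 2.37 to 3.89. Fos, the founding member of that family, had log2 signals of 9.66, 9.66, 9.96 and 9.90 in CT12 VIP slices, against 6.11, 5.79, 6.12 and 6.39 in CT10 slices, and rose by 3.69 (SE 0.16, adjusted p = 1.36e-07). Maff, a small Maf factor that pairs with other bZIP proteins, had log2 signals of 9.32, 9.57, 9.16 and 9.50 in CT12 VIP slices, against 5.91, 5.83, 5.99 and 5.87 in CT10 slices, and rose by 3.49 (SE 0.14, adjusted p = 8.1e-08). For each of these genes the lowest CT12 VIP array lay more than 3 log2 units above the highest CT10 array. Only 1 CT10 array detected Fos, and only 1 detected Maff, so the sizes of their rises rest largely on undetected CT10 values. On the values normalised by the authors they were 2.08 and 1.79. Fosb was not detected on any CT10 array and was at least 5.66-fold higher in CT12 VIP (adjusted p = 7.39e-07). Such a bound sets the mean of the group that detected the gene against the lowest detected signal of each array of the other group, or the gene's own value where that was higher.

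Of 18 tested Egr, Nr4a, Klf and other immediate early genes, 13 were higher and none was lower (median 1.61). Klf4, a Krüppel-like factor, had log2 signals of 9.23, 9.19, 9.17 and 8.75 in CT12 VIP slices, against 4.78, 4.81, 4.93 and 4.95 in CT10 slices, where no array detected it. It was at least 6.98-fold higher in CT12 VIP (adjusted p = 8.06e-08), although its 3 probes differed in size, from 0.96 to 4.22. Egr1, a zinc finger factor and common marker of ERK activity, was bright on all arrays, with log2 signals of 11.30, 11.07, 11.34 and 11.12 in CT12 VIP slices, against 9.0, 8.98, 8.68 and 8.88 in CT10 slices, and rose by 2.32 (SE 0.14, adjusted p = 1.64e-06). Egr2 rose by 3.42 (SE 0.21, adjusted p = 1.64e-06), and Egr3, undetected in CT10, was at least 3.15-fold higher (adjusted p = 7.42e-06). Only 1 CT10 array detected Egr2, and its rise was 1.63 on the values normalised by the authors. The orphan nuclear receptors Nr4a1 and Nr4a2 were also undetected in CT10, and were at least 2.67-fold and 4.55-fold higher in CT12 VIP (adjusted p = 6.28e-07 and 4.18e-07). Arc, Ier5l, Klf9, Klf10 and Npas4 did not pass. Against CT12 Veh, in a fit of the 12 arrays of the 3 groups in which 2.6% of all probes passed, 10 of the 13 were also higher and Ier5, Klf6 and Srf did not pass, while Klf9 was lower.

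**Figure D1:**
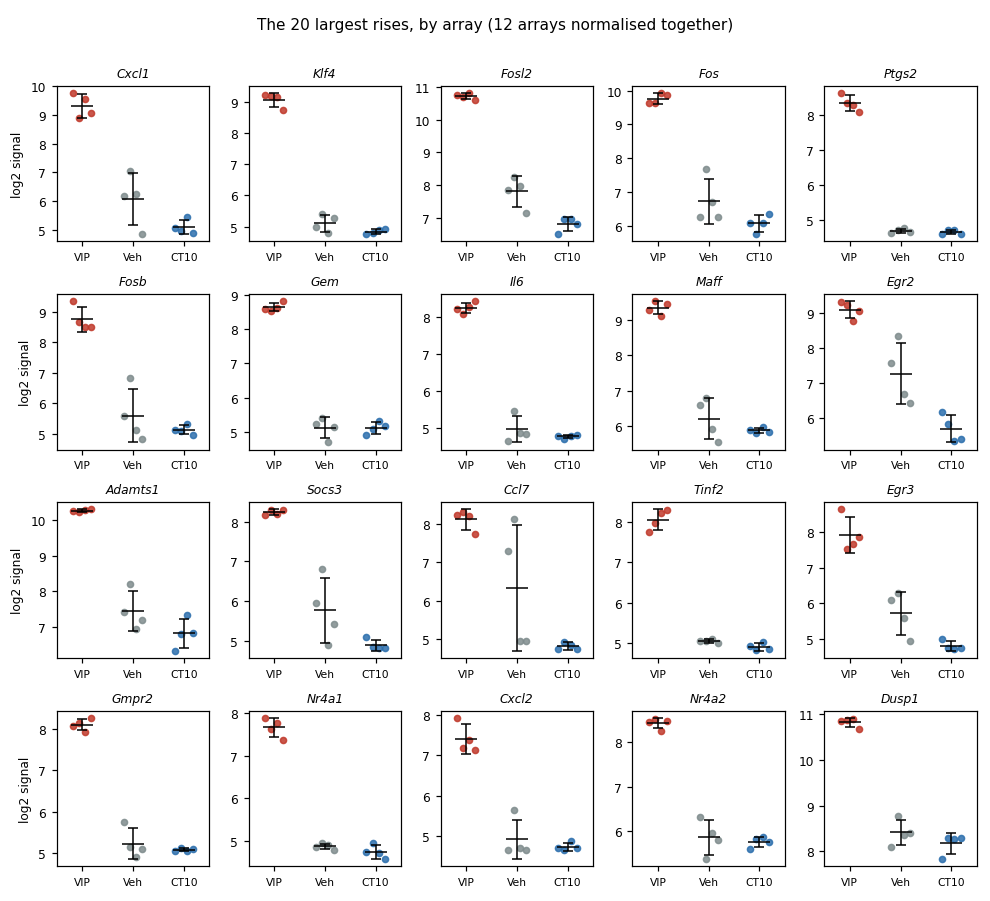
Log2 signal (y axis) of the 20 genes with the largest rises in CT12 VIP over CT10, with 1 point for each array of CT12 VIP (VIP), CT12 Veh (Veh) and CT10, after 12 arrays were normalised together. Black lines are the mean and SD of 4 arrays. Every CT12 VIP array lies above every CT10 array because the genes were chosen so. CT12 Veh, which had no part in the choice, overlaps CT10 in 17 of the 20 genes and CT12 VIP in 1 (Ccl7).

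Part of the cAMP pathway was higher. Of 31 tested genes of cAMP signalling and the CREB family, 6 were higher and none was lower, with a median of 0.05. They were the cAMP phosphodiesterases Pde4a, Pde4b and Pde4d, the CREB-family factor Crem and the salt-inducible kinases Sik1 and Sik2, which restrain the CREB coactivators. Crem had log2 signals of 8.89, 8.58, 8.70 and 9.0 in CT12 VIP slices, against 6.58, 6.85, 6.28 and 6.99 in CT10 slices, and rose by 2.12 (SE 0.18, adjusted p = 2.52e-05). Pde4a had log2 signals of 8.12, 8.24, 8.08 and 7.55 in CT12 VIP slices, against 6.23, 5.73, 5.80 and 5.44 in CT10 slices, and rose by 2.20 (SE 0.20, adjusted p = 5.32e-05). All CT12 VIP arrays of both genes lay more than 1 log2 unit above the highest CT10 array. Only 1 CT10 array detected Pde4a, so the size of its rise rests largely on undetected CT10 values. On the values normalised by the authors it was 0.84. For 1 of the 2 probes of Pde4d the rise was 1.61 (SE 0.15, adjusted p = 6.67e-05), and the brightest probe of Pde4b rose by 1.79 (SE 0.15, adjusted p = 2.52e-05), with 3 of 4 probes past the test. Among the 25 that did not pass were Creb1, Gnas and the tested adenylate cyclases and subunits of protein kinase A, and also the phosphodiesterases Pde7b, Pde8b and Pde10a, the protein kinase A inhibitors Pkia, Pkib and Pkig, Sik3 and the coactivators Crtc2 and Crtc3.

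Genes that act back on MAP kinases and G proteins were higher in part. Of 14 dual specificity phosphatases, which inactivate MAP kinases, Dusp1, Dusp14 and Dusp4 were higher and 11 did not pass (median 0.14). Dusp1 had log2 signals of 10.87, 10.90, 10.91 and 10.71 in CT12 VIP slices, against 7.86, 8.32, 8.30 and 8.32 in CT10 slices, and rose by 2.65 (SE 0.15, adjusted p = 1.04e-06). Dusp4 had log2 signals of 9.08, 9.08, 8.69 and 8.78 in CT12 VIP slices, against 8.09, 8.29, 7.44 and 7.89 in CT10 slices, and rose by 0.98 (SE 0.19, adjusted p = 0.019) at its brightest probe, with 2 of 3 probes past the test. The rise of Dusp1 was thus well outside the spread of its arrays, while the lowest CT12 VIP value of Dusp4 was only 0.41 above the highest CT10 value. The call of Dusp4 was lost without CT12 VIP 2 or CT10 5, without the filter on detection, and in the fits of 12 (adjusted p = 0.0736) and 16 arrays. Of 17 ERK feedback, RGS and Ras-like genes, 6 were higher and 11 did not pass (median 0.16). Gem, a small GTPase that lowers calcium channel activity, was undetected in CT10 and at least 5.22-fold higher in CT12 VIP (adjusted p = 8.1e-08). Phlda1 rose by 2.52 (SE 0.17, adjusted p = 4.19e-06), and Errfi1, an inhibitor of EGF receptors, by 1.33 (SE 0.20, adjusted p = 0.00304). Rasl11a, Rgs2 and Spry2 were the others.

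Cytokines, chemokines and prostaglandin synthesis held some of the largest rises. Of 18 tested genes 11 were higher, none was lower and the median was 1.42. Cxcl1, which encodes a neutrophil chemokine, had log2 signals of 9.79, 8.91, 9.59 and 9.09 in CT12 VIP slices, against 5.10, 4.99, 5.47 and 4.93 in CT10 slices, with no CT10 array detecting it, and was at least 8.36-fold higher (adjusted p = 4.18e-07). Ptgs2, which encodes the inducible cyclooxygenase of prostaglandin synthesis, had log2 signals of 8.67, 8.38, 8.33 and 8.11 in CT12 VIP slices, against 4.64, 4.73, 4.76 and 4.63 in CT10 slices, and was at least 4.27-fold higher (adjusted p = 8.1e-08). Il6, which encodes interleukin-6, had log2 signals of 8.25, 8.12, 8.30 and 8.46 in CT12 VIP slices, against 4.79, 4.72, 4.81 and 4.83 in CT10 slices, and was at least 4-fold higher (adjusted p = 8.06e-08). All 3 were near the floor of the scale in CT10 and detected on every CT12 VIP array. The 2 probes of Ptgs2 both passed but differed in size, at 1.11 and 3.69, and its bound is for the larger. Socs3, the feedback inhibitor of interleukin-6 signalling, was at least 3.96-fold higher, Ccl7 at least 3.66-fold, Cxcl2 at least 2.23-fold and Ccl2 at least 2.23-fold (adjusted p = 8.1e-08, 3.1e-07, 4.58e-06 and 1.2e-06). Only 1 of the 2 probes of Ccl7 passed, and the other differed by 0.33. Cxcl10, Ccl4, Il11 and Lif were the other members that rose, and Il1b, Ptges and Socs2 were among those that did not pass. Against CT12 Veh, 7 of the 11 were also higher and Ccl7, Cxcl10, Ccl4 and Lif did not pass (list median 0.97). Of 9 microglia markers none passed, and their summed signal was 1842 to 2353 in CT12 VIP and 2060 to 2628 in CT10. The part of microglia in these rises was not tested.

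Other large rises had other functions. Adamts1, a secreted metalloprotease, had log2 signals of 10.27, 10.24, 10.31 and 10.32 in CT12 VIP slices, against 6.37, 6.84, 7.36 and 6.88 in CT10 slices, and rose by 3.42 (SE 0.19, adjusted p = 9.18e-07). Tinf2, a component of the shelterin complex at telomeres, had log2 signals of 7.78, 8.0, 8.26 and 8.32 in CT12 VIP slices, against 4.95, 4.84, 5.05 and 4.86 in CT10 slices, and was at least 3.51-fold higher (adjusted p = 3.6e-07). Gmpr2, a GMP reductase, had log2 signals of 8.10, 8.16, 7.95 and 8.29 in CT12 VIP slices, against 5.10, 5.16, 5.08 and 5.15 in CT10 slices, and was at least 3.59-fold higher (adjusted p = 1.36e-07). Tinf2 lies within the annotated span of Gmpr2 in RefSeq, so the 2 probes may not measure separate genes. Of 9 tested growth factors and activity-linked genes, Nptx1, Stc1, Hbegf and Fgf2 were higher (median 0.81). Hbegf, a ligand of EGF receptors, rose by 1.01 (SE 0.18, adjusted p = 0.00918), and Fgf2 by 0.81 (SE 0.18, adjusted p = 0.0417), a call that was lost without any 1 of 7 arrays (all but CT10 1). Only 1 CT10 array detected Fgf2. Of 11 actin and SRF target genes Ccn1, Tpm4 and Tpm3 were higher (median 0.09). Tpm4, a tropomyosin, rose by 1.17 (SE 0.18, adjusted p = 0.00372), Ccn1, a secreted matrix protein that did not pass against CT12 Veh, was at least 1.48-fold higher (adjusted p = 0.00151), and Tpm3 rose by 0.59 (SE 0.14, adjusted p = 0.0481), a call that was lost without any 1 array. For the stress genes that follow, the share higher over all genes was 2.17%. Of 16 heat shock and cold-inducible genes only Bag3, a co-chaperone, passed, with a rise of 1.72 (SE 0.14, adjusted p = 1.53e-05) and a list median of -0.02. Of 13 genes of endoplasmic reticulum and oxidative stress Gadd45b and Gadd45g, which take part in DNA demethylation and growth arrest, passed at their brightest probe, and Srxn1 and Gadd45a at another probe only. The list's median was 0.25, and its summed signal was 8335 to 8672 in CT12 VIP and 6727 to 7981 in CT10, without overlap. Bright members, among them the called Gadd45g, weigh most in this sum of linear signals. None of the 13 differed between CT12 VIP and CT12 Veh (adjusted p = 0.152 for Gadd45b and 0.373 for Gadd45g), and the vehicle differences from CT10 were 0.57 and 0.35 for these genes. Gadd45g did not pass against CT10 without any 1 of 6 arrays.

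**Figure D2:**
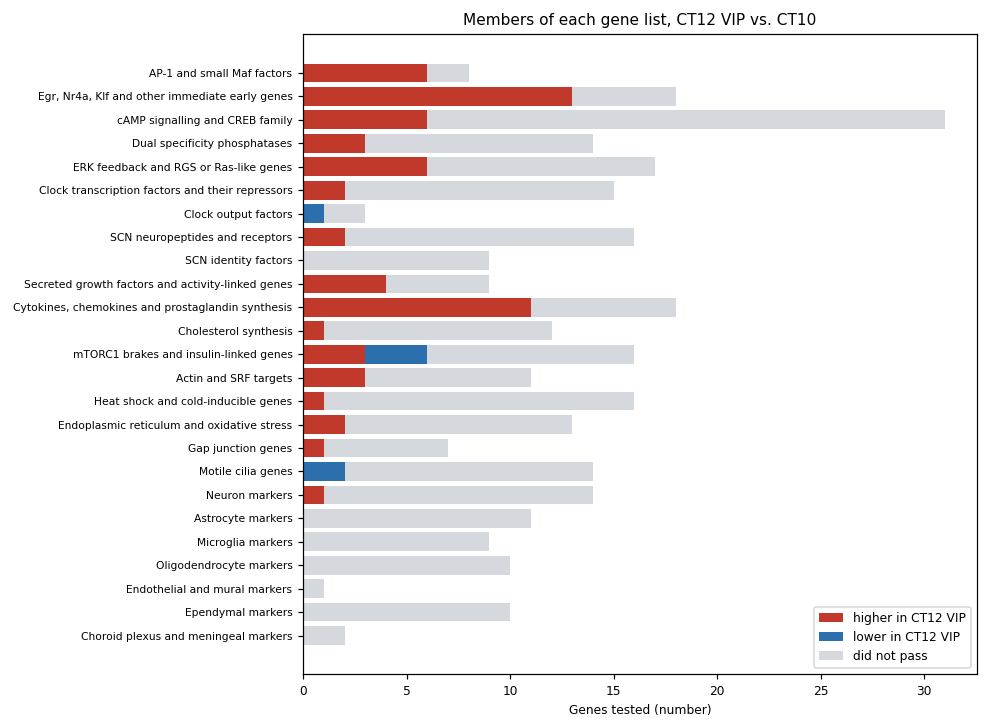
Number of tested genes (x axis) in each of 25 gene lists that were higher in CT12 VIP than in CT10 (red), lower (blue) or did not pass the test (grey, limma adjusted p of 0.05 or more). The lists of AP-1 factors, other immediate early genes and cytokines hold 30 of the 65 red entries (6 of 8, 13 of 18 and 11 of 18), and the 6 lists of glial, vascular, ependymal and choroid markers hold none. Over all 9632 genes 2.17% were higher, so none in these short lists (1 vascular and 2 choroid genes tested) is near the share over all genes.

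CREs were read in the promoters of the named rises because these genes include known targets of cAMP. The 250 bases before each RefSeq start were searched on both strands for the full CRE, TGACGTCA, and for its half-site, TGACG, which every full CRE contains. A full CRE lay in at least 1 listed promoter of 11.3% of 159 higher genes, of 0% of 34 lower genes and of 3.3% of 7631 tested genes that have a promoter in the table, and in 1.55% of all 32851 promoters. The half-site lay in 52.2% of the higher genes, 14.7% of the lower genes, 31.6% of tested genes and 17.8% of all promoters. The clock's E-box, CACGTG, lay in 16.4%, 5.88%, 9.85% and 6.02%. No test was run on these shares, and a match is a description, not a site of binding. Among the 20 largest rises 17 had a promoter in the table and 3 of these held a full CRE: Maff at chr15:79347451-79347519 (plus strand), Tinf2 at chr14:55681826-55681913 (minus strand) and Dusp1 at chr17:26508568-26508655 (minus strand), in GRCm38.p6. Cartpt, at chr13:99900748-99900835 (minus strand), is shown with them as the neuropeptide gene that rose most. Each stretch is written 5′ to 3′ on the strand of its gene, upstream of a listed RefSeq start, with the CRE in capitals.
Maff: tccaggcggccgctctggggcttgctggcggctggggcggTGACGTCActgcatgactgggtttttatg
Tinf2: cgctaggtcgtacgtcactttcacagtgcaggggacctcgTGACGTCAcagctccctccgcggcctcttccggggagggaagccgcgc
Dusp1: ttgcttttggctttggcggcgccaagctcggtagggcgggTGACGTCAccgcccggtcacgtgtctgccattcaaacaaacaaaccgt
Cartpt: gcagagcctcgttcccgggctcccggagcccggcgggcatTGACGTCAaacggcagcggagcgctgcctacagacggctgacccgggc
The CRE began 29 bases before 1 of the 3 listed starts of Maff, 56 before the listed start of Tinf2, 143 before that of Dusp1 and 112 before that of Cartpt. The promoter stretch of Tinf2 lies inside Gmpr2, the other gene of that locus that rose. It also lies inside the annotated span of Tinf2 itself (chr14:55676208-55682159), so it is not upstream of the whole gene.

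Of 15 tested clock factors and repressors Bhlhe40 and Per1 were higher and 13 did not pass (median 0.23). Over all genes 2.17% were higher, so this count is not below the share over all genes. The summed signal of the 15 was 4716 to 4794 in CT12 VIP and 3816 to 4409 in CT10, without overlap. Bright members, among them the called Bhlhe40, weigh most in this sum of linear signals, so it does not speak for the 13 that did not pass. Against CT12 Veh 4 were higher, which were Bhlhe40, Per1, Rorb and Fbxl21. Bhlhe40, a repressor also known as Dec1, had log2 signals of 9.79, 9.70, 9.76 and 9.81 in CT12 VIP slices, against 8.39, 8.72, 8.52 and 8.57 in CT10 slices, and rose by 1.21 (SE 0.13, adjusted p = 0.000209). Per1, a component of the negative loop, had log2 signals of 7.12, 6.73, 6.78 and 6.55 in CT12 VIP slices, against 6.02, 5.62, 6.0 and 6.31 in CT10 slices, and rose by 0.81 (SE 0.18, adjusted p = 0.0359). Only 1 of 4 CT10 arrays and no CT12 Veh array detected Per1. The groups of Per1 were separated by 0.24 only, and its call was lost without any 1 of 7 arrays (all but CT10 5) and on the deposited normalised values (adjusted p = 0.0635). Per2, its paralogue, had log2 signals of 8.45, 8.63, 8.17 and 8.47 in CT12 VIP slices, against 8.23, 8.45, 7.42 and 8.01 in CT10 slices, which overlapped, and did not pass (difference 0.40, SE 0.21, adjusted p = 0.446). Cry1, Cry2, Arntl and Nr1d2 also did not pass, with differences of 0.28, -0.32, 0.47 and -0.18. Nr1d1, the REV-ERB repressor, was not detected on any CT12 VIP array and on 2 of 4 CT10 arrays, and did not pass (adjusted p = 0.0717). The arrays of the groups did not overlap for Nr1d1 or Nr1d2. Of 3 clock output factors Dbp, a PAR bZIP factor driven by E-boxes, was lower. Its log2 signals were 7.44, 7.27, 7.38 and 7.37 in CT12 VIP slices, against 8.17, 7.95, 8.61 and 8.34 in CT10 slices, and it fell by 0.90 (SE 0.16, adjusted p = 0.00898).

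Of 16 tested SCN neuropeptides and receptors Cartpt and Vgf were higher and 14 did not pass (median 0.20). Cartpt, the precursor of CART peptides, had log2 signals of 8.27, 8.57, 8.60 and 8.68 in CT12 VIP slices, against 6.25, 5.11, 6.11 and 6.63 in CT10 slices, and rose by 2.51 (SE 0.27, adjusted p = 0.000226). Its CT10 arrays spread over 1.52 log2 units and 2 of them detected it, whereas the CT12 VIP arrays lay within 0.41. Vgf, the precursor of several secreted peptides, had log2 signals of 7.83, 7.64, 7.56 and 7.84 in CT12 VIP slices, against 6.78, 6.75, 6.39 and 6.37 in CT10 slices, and 1 of its 2 probes passed, with a rise of 1.15 (SE 0.15, adjusted p = 0.00119). Vip itself had overlapping log2 signals of 9.05, 9.46, 9.35 and 9.58 in CT12 VIP slices, against 9.21, 9.36, 8.15 and 8.96 in CT10 slices (difference 0.43, adjusted p = 0.473), and Avp differed by -0.09 (adjusted p = 0.881). None of 9 SCN identity factors passed. Gjb2, which encodes connexin 26, was the 1 of 7 gap junction genes that rose, detected on 3 of 4 CT12 VIP arrays and on no CT10 array and at least 1.59-fold higher (adjusted p = 0.0218), a call that was lost without CT12 VIP 2, CT12 VIP 4, CT10 1 or CT10 3.

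**Figure D3:**
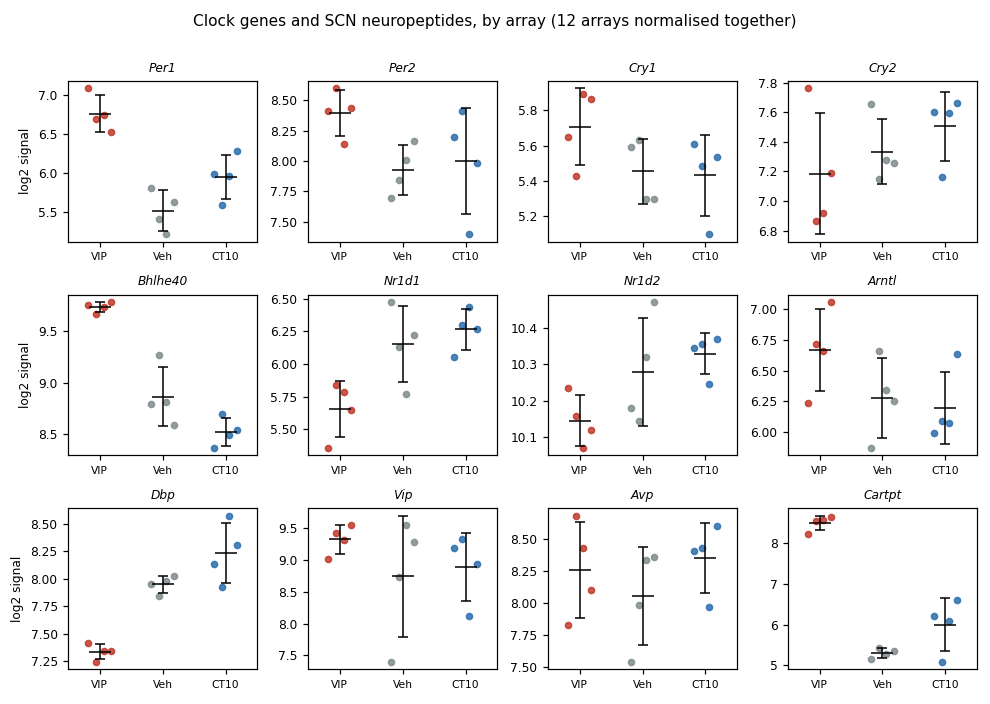
Log2 signal (y axis) of 9 clock genes and 3 SCN neuropeptide genes on each array of CT12 VIP (VIP), CT12 Veh (Veh) and CT10, after 12 arrays were normalised together, with the mean and SD of 4 arrays in black. Bhlhe40, Per1 and Cartpt lie above both other groups in CT12 VIP and Dbp below both, and the groups overlap for Per2, Cry1, Cry2, Arntl, Vip and Avp.

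Falls were fewer and smaller. Txnip, an inhibitor of thioredoxin that also limits glucose uptake, had log2 signals of 5.08, 5.53, 5.64 and 5.13 in CT12 VIP slices, against 7.70, 7.45, 7.99 and 7.90 in CT10 slices. No CT12 VIP array detected it, and it was at least 3.08-fold lower in CT12 VIP (adjusted p = 9.9e-06), with both of its probes past the test. Ccdc190 had log2 signals of 7.89, 7.66, 7.87 and 7.47 in CT12 VIP slices, against 9.01, 9.16, 9.34 and 9.27 in CT10 slices, and 1 of its 3 probes passed, which fell by 1.47 (SE 0.15, adjusted p = 0.000124). The transcript 2810459M11Rik had log2 signals of 6.24, 5.82, 6.44 and 6.0 in CT12 VIP slices, against 7.35, 7.56, 7.44 and 7.87 in CT10 slices, and fell by 1.43 (SE 0.18, adjusted p = 0.000611). The remaining 9 of the 12 largest falls lay between -0.80 (Ttc30b, a component of intraflagellar transport) and -0.91 (Itpk1, an inositol phosphate kinase). They included Cdc42ep4, an effector of the GTPase CDC42, which fell by 0.89 (adjusted p = 0.00842), and the others were Dbp, Sesn1, Ubxn10, Gcnt1, Rhou and Ccdc121. Of these 9, Rhou lost its call without any 1 of 7 arrays (all but CT10 1), Ccdc121 without any 1 of 7 (all but CT10 5), Gcnt1 without any 1 of 6 (all but CT12 VIP 1 and CT10 5), Itpk1 without CT12 VIP 2, CT12 VIP 4, CT10 3 or CT10 4, and Ubxn10 without CT10 4. Sesn1, Ttc30b and Ccdc121 did not pass when all 16 arrays were fitted together, nor Gcnt1 when its probes were averaged.

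Of 16 tested mTORC1 brakes and insulin-linked genes 3 were higher and 3 were lower, and the median was -0.13. The higher ones were Irs2, an adaptor of the insulin receptor that was undetected in CT10 and at least 3.14-fold higher (adjusted p = 1.23e-05), Ppp1r3c, which directs a phosphatase to glycogen, with a rise of 1.03 (SE 0.16, adjusted p = 0.00372), and Foxo1 (adjusted p = 0.0361), which only 2 CT12 VIP arrays and no CT10 array detected and which lost its call without any 1 of 7 arrays (all but CT12 VIP 1). The lower ones were Txnip, Ddit4 and Sesn1, a sestrin that restrains mTORC1, which fell by 0.88 (SE 0.16, adjusted p = 0.0115). Of 12 genes of cholesterol synthesis Pmvk, a kinase of the mevalonate pathway, rose by 0.84 (SE 0.14, adjusted p = 0.00762). The other 11 did not pass at their brightest probe, with a list median of 0.36 against -0.05 over all genes. At other probes Insig1 (3 of 4 probes) and Fdps (1 of 2) were higher. The summed linear signal of the list, in which bright members weigh most, was 5464 to 6421 in CT12 VIP and 4214 to 4551 in CT10, without overlap. With 12 arrays normalised together it was 5349 to 6280 in CT12 VIP, 4170 to 4452 in CT12 Veh and 4127 to 4457 in CT10. Against CT12 Veh 3 of the 12 were higher, which were Pmvk, Msmo1 and Hsd17b7 (adjusted p = 0.00144, 0.0129 and 0.0225).

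Of 14 motile cilia genes Ccdc190 and Ubxn10 were lower, 12 did not pass and the median was -0.36. The summed linear signal of the list, in which bright members weigh most, was 2318 to 2669 in CT12 VIP and 3131 to 4161 in CT10, without overlap. On the scale of 12 arrays it was 2269 to 2614 in CT12 VIP, 3982 to 4609 in CT12 Veh and 3066 to 4072 in CT10. None of 10 ependymal markers passed, and their summed signal was 2169 to 2439 in CT12 VIP, 3050 to 3936 in CT12 Veh and 2073 to 3267 in CT10. Ependymal markers of CT12 VIP thus lay within the range of CT10 and below CT12 Veh. Against CT12 Veh, 6 of the 14 cilia genes and 2 of the 10 ependymal markers were lower. The part of ependymal cells in the falls of the cilia genes was not tested.

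**Figure D4:**
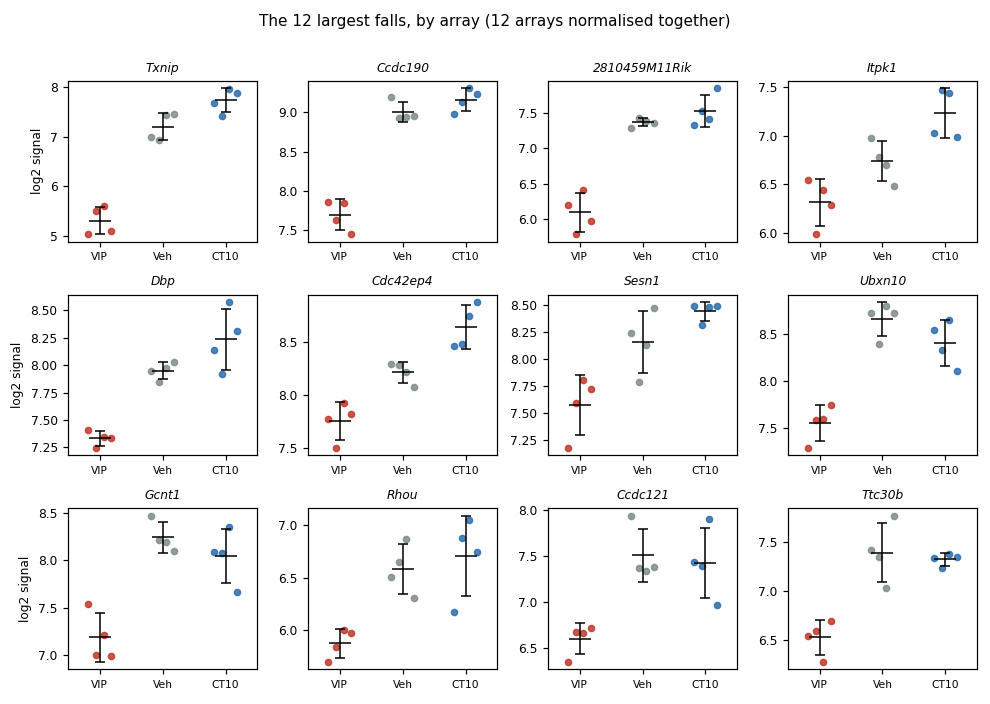
Log2 signal (y axis) of the 12 genes with the largest falls in CT12 VIP against CT10, with 1 point for each array of CT12 VIP (VIP), CT12 Veh (Veh) and CT10, after 12 arrays were normalised together, and the mean and SD of 4 arrays in black. Vehicle arrays lie near CT10 for Ccdc190, 2810459M11Rik, Ubxn10, Gcnt1 and Ttc30b, and below every CT10 array for Itpk1 and Cdc42ep4.

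CT12 Veh slices were set on the same scale by normalising the 12 arrays of the 3 groups together and fitting them at once (18209 probes). In that fit the difference of CT12 VIP from CT12 Veh is exactly the change of CT12 VIP from CT10 less the change of CT12 Veh from CT10, and so tests whether the 2 changes differ. Both changes use the same CT10 arrays, so they are not independent. Between CT12 Veh and CT10 no probe passed (0%, limma, lowest adjusted p = 0.301), although 1343 had an unadjusted p under 0.05. Between CT12 VIP and CT12 Veh 474 probes passed (2.6%), 373 upward and 101 downward in CT12 VIP. None of the 453 probes called against CT10 was therefore shared with CT12 Veh by the test. Of the 453, 333 also differed from CT12 Veh in the same direction (306 higher and 27 lower), and 120 did not pass that test (93 higher and 27 lower). Over the higher probes the median difference was 1.09 for CT12 VIP minus CT10, 0.12 for CT12 Veh minus CT10 and 1.03 for CT12 VIP minus CT12 Veh. Over the lower probes these medians were -0.76, -0.16 and -0.67. Over all probes the medians lay between -0.02 and 0.00.

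Several large rises were seen in part in vehicle slices, without passing the adjusted test there. The 8 called genes with the largest vehicle change in the direction of VIP were Egr2, Ccl7, Stx11, Ccl2, Fosl2, Cxcl1, Egr3 and Socs3. No CT10 array detected Ccl7, Stx11, Ccl2, Cxcl1, Egr3 or Socs3, so that their differences from CT10 rest on values near the floor of the scale. Only 1 CT10 array detected Egr2. Egr2 had log2 signals of 9.34, 9.25, 8.79 and 9.06 in CT12 VIP, 7.59, 8.36, 6.69 and 6.44 in CT12 Veh and 6.17, 5.82, 5.34 and 5.39 in CT10. Every vehicle array of Egr2 lay above every CT10 array and below every CT12 VIP array, and its difference was 1.59 between CT12 Veh and CT10 (unadjusted p = 0.000336, adjusted p = 0.432) and 1.84 between CT12 VIP and CT12 Veh (adjusted p = 0.00619). Ccl7 had log2 signals of 8.23, 8.32, 8.21 and 7.74 in CT12 VIP, 7.31, 8.15, 4.93 and 4.94 in CT12 Veh and 4.74, 4.93, 4.84 and 4.74 in CT10. Vehicle arrays 1 and 2 of Ccl7 lay near the CT12 VIP level and arrays 3 and 4 near CT10, and Ccl7 alone of the 20 largest rises did not differ from CT12 Veh past the threshold (difference 1.79, adjusted p = 0.131). Stx11, a syntaxin of immune cells, had log2 signals of 7.65, 7.42, 7.81 and 7.67 in CT12 VIP, 7.11, 7.01, 6.27 and 6.04 in CT12 Veh and 5.64, 5.61, 5.43 and 5.26 in CT10, again with all vehicle arrays between the other groups. Fosl2 showed the same order, with a vehicle difference of 0.99 (unadjusted p = 0.000188) beside 3.89 for CT12 VIP minus CT10.

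CT12 Veh 2 was the highest of the 4 vehicle arrays for 16 of the 20 largest rises and for 7 of the 8 genes above. Without it the vehicle difference from CT10 was 1.21 for Egr2, 0.91 for Ccl7, 0.59 for Ccl2, 0.65 for Cxcl1 and 0.53 for Socs3, against 1.59, 1.52, 1.07, 0.99 and 0.88 with it. Ccl7 then differed between CT12 VIP and CT12 Veh (adjusted p = 0.00743). Ccl2, which passed that test with all arrays (adjusted p = 0.049), did not pass without CT12 Veh 1, 3 or 4 (adjusted p = 0.0893, 0.123 and 0.14). Stx11 did not pass without CT12 Veh 3 (adjusted p = 0.0626).

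Other large rises had vehicle values close to CT10. Ptgs2 had log2 signals of 8.64, 8.35, 8.30 and 8.09 in CT12 VIP, 4.65, 4.71, 4.78 and 4.67 in CT12 Veh and 4.62, 4.71, 4.74 and 4.61 in CT10, and Gem of 8.59, 8.53, 8.60 and 8.81 in CT12 VIP, 5.26, 5.42, 4.71 and 5.16 in CT12 Veh and 4.93, 5.09, 5.34 and 5.17 in CT10. Vehicle and CT10 arrays overlapped for both, and both were higher in CT12 VIP than in CT12 Veh (adjusted p = 1.5e-09 and 1.03e-08). Likewise no CT12 Veh or CT10 array detected Tinf2, Gmpr2, Nr4a1 or Il6, which all 4 CT12 VIP arrays detected. No CT12 Veh array detected 9 of the 20 largest rises.

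**Figure D5:**
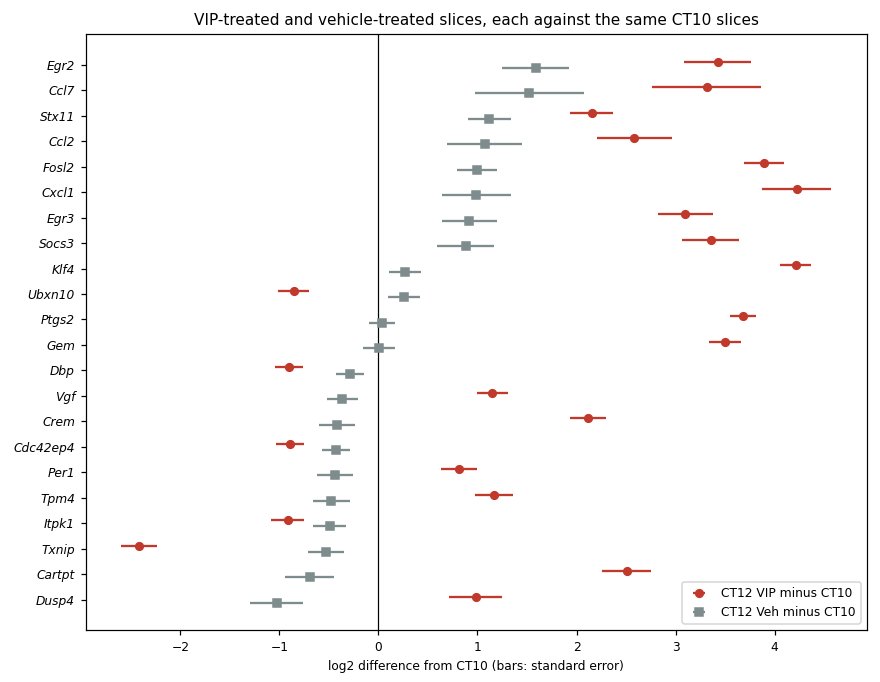
Log2 difference from CT10 (x axis, bars are the standard error) of CT12 VIP (red circles) and CT12 Veh (grey squares) for 22 genes, ordered by the vehicle difference, in the fit of 12 arrays. Both are set against the same CT10 arrays, and the vehicle difference runs from 1.59 (Egr2) to -1.03 (Dusp4).

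For some genes that rose with VIP, vehicle values lay on the other side of CT10. Dusp4 had log2 signals of 9.05, 9.05, 8.66 and 8.75 in CT12 VIP, 6.18, 6.48, 7.35 and 7.48 in CT12 Veh and 8.06, 8.26, 7.40 and 7.86 in CT10. Its vehicle difference from CT10 was -1.03 (unadjusted p = 0.00186, adjusted p = 0.539), and CT12 VIP was 2.01 above CT12 Veh (adjusted p = 0.000384) but 0.98 above CT10, which did not pass in this fit (adjusted p = 0.0736). Cartpt had a vehicle difference of -0.69 and was undetected on every vehicle array, and was higher in CT12 VIP than in CT12 Veh (adjusted p = 1.72e-06). Per1, Crem, Tpm4 and Vgf had vehicle differences of -0.44, -0.42, -0.47 and -0.36, none past the adjusted test (unadjusted p = 0.0288, 0.0383, 0.0243 and 0.0353). Per1 was 1.26 higher in CT12 VIP than in CT12 Veh (adjusted p = 0.000784), against 0.81 over CT10. No vehicle array and only 1 CT10 array detected Per1, so its vehicle difference rests largely on undetected values. These genes were therefore further from CT12 Veh than from CT10 in CT12 VIP slices.

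Among the 12 largest falls 8 also differed from CT12 Veh and 4 did not. Txnip had log2 signals of 5.05, 5.50, 5.60 and 5.10 in CT12 VIP, 7.0, 6.93, 7.43 and 7.45 in CT12 Veh and 7.67, 7.41, 7.96 and 7.87 in CT10, with a vehicle difference of -0.53 (unadjusted p = 0.0116) and CT12 VIP below CT12 Veh (adjusted p = 1.79e-05). Cdc42ep4 had log2 signals of 7.77, 7.50, 7.93 and 7.82 in CT12 VIP, 8.29, 8.28, 8.21 and 8.07 in CT12 Veh and 8.46, 8.48, 8.75 and 8.88 in CT10, so that all vehicle arrays lay between the other groups, and CT12 VIP did not differ from CT12 Veh past the threshold (difference -0.46, adjusted p = 0.128). Itpk1, Sesn1 and Rhou were the other 3 (adjusted p = 0.289, 0.0976 and 0.0619). Dbp was lower than CT12 Veh by the test (difference -0.61, adjusted p = 0.0303), with a vehicle difference from CT10 of -0.29 (unadjusted p = 0.0611). Ubxn10, of the cilia list, had a vehicle difference of 0.26 and differed by -1.12 between CT12 VIP and CT12 Veh (adjusted p = 0.000603).

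The values that the authors normalised over all arrays of the series gave the same signs. On them 494 of 17658 probes (2.8%) passed between CT12 VIP and CT10. They included 378 of the 453 with the same sign, and no probe of the 453 had the opposite sign. The size of a difference depended on the scale. Fosl2, a bright transcript, differed by 2.72 there against 3.89 here, and Ptgs2, dim in CT10, by 1.44 against 3.69. Of the 64 called genes named by the rule, Per1, Fgf2, Foxo1 and Rhou did not pass on that scale.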

How the data were processed

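RNA from SCN slices was amplified (NuGEN Ovation Pico WTA) and hybridised to Illumina MouseWG-6 v2 arrays. Raw intensity values per probe and detection p-values were deposited without normalisation, and the bead summary software is not given in the sources used here. The authors also deposited log2-like values of all 16 arrays, made with lumi (version not given) by a detection filter, variance stabilisation and quantile normalisation. Tables normalised for other pairs of groups were not used.

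From the raw signals, 8 arrays (CT12 VIP and CT10) or 12 (with CT12 Veh) were background corrected, quantile normalised and log2 transformed with neqc in limma 3.58.1 (R 4.3.3, offset 16), with negative controls inferred from the detection p-values. This takes the place of lumi. Probes that at least 1 array detected (p no higher than 0.01) entered a moderated fit without covariates, 2-sided, with Benjamini-Hochberg adjustment at 0.05. The fit was tested on simulated data. Probes were named through Entrez identifier (13733), accession (1254), older symbol (969) or platform symbol (777), and 2722 of the 17658 tested had no gene. Per3, Prok2 and Vipr2 had no tested, named probe.

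Named genes comprised the 20 top rises and 12 top falls among called genes whose groups did not overlap and that every array of the higher group detected, up to 4 called members of each of 25 gene lists, the 8 called genes with the largest vehicle change in VIP's direction, and 14 fixed genes. Members of lists beyond these are named only as passing or not. Members and lists were chosen with earlier results of these data known. Promoters are those of RefSeq (GRCm38.p6). Alternatives were the authors' values, no background correction, other filters, joint normalisation, a replicate block, array weights, detected probes as a covariate, averaging the probes of a gene, unadjusted p-values and leaving out arrays. Precision is limited by the 4 arrays in each group.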

Additional observations from a re-analysis of the deposited data

Results flagged for a closer look

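In 19 of 216 groups of 4 arrays of named genes, 1 array stood apart from the other 3 by more than Dixon's 95% limit. Chance flags about 1 in 20 groups. Values are log2 signals, from 8 arrays normalised together for CT12 VIP and CT10 and from 12 for CT12 Veh. In CT12 VIP, Klf4 was 8.75 on replicate 4, below 9.17 to 9.23 on the others, Ccdc121 was 6.38 on replicate 1, below 6.70 to 6.75 on the others, Pde4b was 8.73 on replicate 1, above 8.50 to 8.54 on the others, and Dusp14 was 7.85 on replicate 2, below 8.10 to 8.15 on the others. In CT12 Veh, Cxcl2 was 5.64 on replicate 2, above 4.66 to 4.69 on the others, Ccdc190 was 9.19 on replicate 1, above 8.92 to 8.96 on the others, Ccdc121 was 7.94 on replicate 1, above 7.34 to 7.38 on the others, Pde4a was 6.75 on replicate 2, above 6.21 to 6.30 on the others, Rasl11a was 5.52 on replicate 2, above 4.83 to 4.90 on the others, Ccn1 was 5.10 on replicate 3, below 6.08 to 6.19 on the others, and Gadd45b was 6.69 on replicate 3, above 5.85 to 5.95 on the others. In CT10, Socs3 was 5.12 on replicate 1, above 4.82 to 4.86 on the others, Egr3 was 5.04 on replicate 1, above 4.74 to 4.78 on the others, Dusp1 was 7.86 on replicate 1, below 8.30 to 8.32 on the others, Sesn1 was 8.34 on replicate 3, below 8.51 to 8.52 on the others, Hbegf was 8.32 on replicate 4, above 7.57 to 7.63 on the others, Gadd45g was 10.16 on replicate 4, above 9.78 to 9.84 on the others, Cry2 was 7.19 on replicate 3, below 7.62 to 7.69 on the others, and Arntl was 6.66 on replicate 5, above 6.02 to 6.12 on the others. The vehicle values of Cxcl2, Pde4a and Rasl11a that stood apart were all on CT12 Veh 2, the array that was highest for 16 of the 20 largest rises.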

How the results depend on the processing

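The 453 probes (399 higher, 54 lower) numbered 2402 (1373 higher, 1029 lower) at an unadjusted p under 0.05. Lower probes numbered 104 when all arrays of a group had to detect a probe, 89 with array weights, 82 with detected probes per array as a covariate, 89 without arrays with fewer than 10000 detected probes and 88 with 12 arrays normalised together. Leaving out 1 array gave 293 to 508 probes (273 to 419 higher, 20 to 89 lower), 348 to 495 between CT12 VIP and CT12 Veh, 0 between CT12 Veh and CT10, and 279 to 331 of the 453 passing against CT12 Veh. The replicate block (numbers shared by the groups) gave 145 probes, 142 higher and 3 lower. Deviations of same-numbered arrays correlated at -0.164, -0.256 and 0.00246. So few values show no sign that the numbers pair the slices but cannot exclude it. Dbp, Dusp14, Vgf and Tpm4 were among the genes that lost their call under the block. No blocked value is given elsewhere. Between CT12 Veh and CT10, 1 probe passed on the authors' values and 1 without background correction, in both cases Rasl11b, a Ras-like gene not called in CT12 VIP vs. CT10. The cause of these changes was not tested. Of the 64 called genes named by the rule, 40 kept the call under all 19 alternatives, 24 lost it at least once, and none of the 72 named changed sign where called. Nr1d1, uncalled, passed in the fit that averaged each gene's probes. It has only 1 tested probe, so its values were the same and only the set of tests around it differed. With 4 arrays a group, and with many rises from below detection in CT10, sizes of dim genes depend on the background correction.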
